A study of Mus musculus with 10 samples.

Results

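The complement genes described here are 9 genes of the mouse complement system, C1qa, C1qb, C1qc, C1ra, Serping1, C4b, C2, C3 and Cfb, taken by symbol from a table of 57010 genes, in which all 9 had a row. They were measured by bulk RNA sequencing in the retinas of 10 mice aged 6 to 8 weeks at injection, taken 14 days after the vector was put into the vitreous. In 5 mice the injected vector was AAV2-GFP, an adeno-associated virus with the AAV2 capsid that carries green fluorescent protein (GFP), and in 5 mice it was AAV206-GFP, the same reporter in the AAV206 capsid. Every mouse received a vector, and an untreated retina was not analysed here, so each difference lies between the vectors. The strain, the sex and the promoter of the transgene are not given in the sources used here.

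Complement is a cascade of plasma and tissue proteins that marks surfaces for removal by phagocytes. The classical pathway starts when C1q, built from the C1qa, C1qb and C1qc chains, binds a surface and activates the protease C1r, which cleaves C1s. The protease C1s then cleaves C4 and C2 to form a C3 convertase, while the alternative pathway forms its convertase from C3b and factor B (Cfb). C1q in neural tissue is made mainly by microglia, the resident phagocytes, and C1 inhibitor (Serping1) stops the C1 proteases.

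The 3 C1q genes lie side by side within 18.7 kb on the minus strand of chromosome 4, in the order C1qb (chr4:136880129-136886187), C1qc (chr4:136889804-136893065) and C1qa (chr4:136895917-136898803). C4b (chr17:34728380-34743882), Cfb (chr17:34856374-34862518) and C2 (chr17:34862604-34898265) lie in the class III region of the major histocompatibility complex on the minus strand of chromosome 17, with 85 bp between Cfb and C2. C3 (chr17:57203970-57228136, minus strand), C1ra (chr6:124512405-124523443, plus strand) and Serping1 (chr2:84765387-84775444, minus strand) stand apart from these clusters. These positions are those of GENCODE release M21 on GRCm38, the assembly also called mm10, which the submitters' processing notes name.

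Promoters are shown for C1qb and C3, because both genes were high in the same retina and their windows lie outside the annotated gene. RefSeq entries (GRCm38.p6) were matched for 4 of the 9 genes, and 2 of these had a window outside the M21 gene. Each run gives the 250 bases before the RefSeq start, 5′ to 3′ on the gene's strand, with motif matches in capitals. The C1qb window is chr4:136886201-136886450 and the C3 window is chr17:57228137-57228386, both on the minus strand.
C1qb: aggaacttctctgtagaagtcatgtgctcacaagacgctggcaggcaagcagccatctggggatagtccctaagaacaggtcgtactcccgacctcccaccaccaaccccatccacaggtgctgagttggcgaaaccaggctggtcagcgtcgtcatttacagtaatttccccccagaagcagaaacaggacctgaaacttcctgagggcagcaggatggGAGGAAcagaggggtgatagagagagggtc
C3: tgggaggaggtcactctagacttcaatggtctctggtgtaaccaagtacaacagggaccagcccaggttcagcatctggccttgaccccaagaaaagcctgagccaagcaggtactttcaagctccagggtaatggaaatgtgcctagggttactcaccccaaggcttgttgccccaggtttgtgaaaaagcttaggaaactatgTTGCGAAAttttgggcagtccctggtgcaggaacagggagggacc
In C1qb the capitals mark GAGGAA, the core bound by the myeloid factor PU.1, at positions -30 to -25 from the start. In C3 they mark a match to TTGCNNAA, a pattern bound by C/EBP factors, at positions -45 to -38. Both strands were searched, and among 32851 RefSeq windows of the same length 23.3% held GAGGAA and 9.56% held TTGCNNAA. The interferon-related patterns TTCNNNGAA (7.02% of windows) and ISRE, written as GAAA, any 2 bases and GAAA (2.98%), had no match in either of these windows. These motifs were chosen after the data were seen, and a match describes letters, not binding.

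The total count per library lay between 10989843 and 12752604. Rod photoreceptor markers were abundant in every library, with Gnat1, the rod transducin subunit, at 9278 to 11628 CPM (counts-per-million, on scaled library sizes) and Sag, the rod arrestin, at 3159 to 3698 CPM, so defining transcripts of the labelled tissue were present. AAV2-GFP replicate 1 stood apart from the other libraries, at 30.3 on the first principal component (45.0% of the variance of the 500 most variable genes), with AAV2-GFP replicate 4 next at 13.1 and the other 8 libraries between -9.43 and 3.49. Values that rest on replicate 1 are therefore given with and without it.

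Of the 9 complement genes, 8 passed the filter on low counts and were tested. With AAV206-GFP, 2 of them fell, C1qa and C1qc, and none rose, where 5.30% of all tested genes were called lower and 5.95% higher (edgeR quasi-likelihood test, Benjamini-Hochberg adjusted over 15539 genes, threshold 0.05). The log2 fold change was negative for 7 of the 8, beside 8048 of the 15539 tested genes. The median of the 8 was -1.52, against -0.0095 over all tested genes. At an unadjusted p under 0.05, 6 of the 8 were lower, beside 14.3% of all tested genes. The highest level of 8 of the 9 genes was in AAV2-GFP replicate 1, and without that retina 0 of the 8 were called by edgeR, with 2 at an unadjusted p under 0.05 and 12.2% of all tested genes called. In that fit 6 of the 8 log2 fold changes were negative, beside 7945 of the 15539 genes tested in both fits. The median of the 8 was then -0.37, against -0.0075 over all genes. In whole retina, a change in the number of cells that make a transcript and a change in its amount per cell cannot be told apart.

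**Figure D1:**
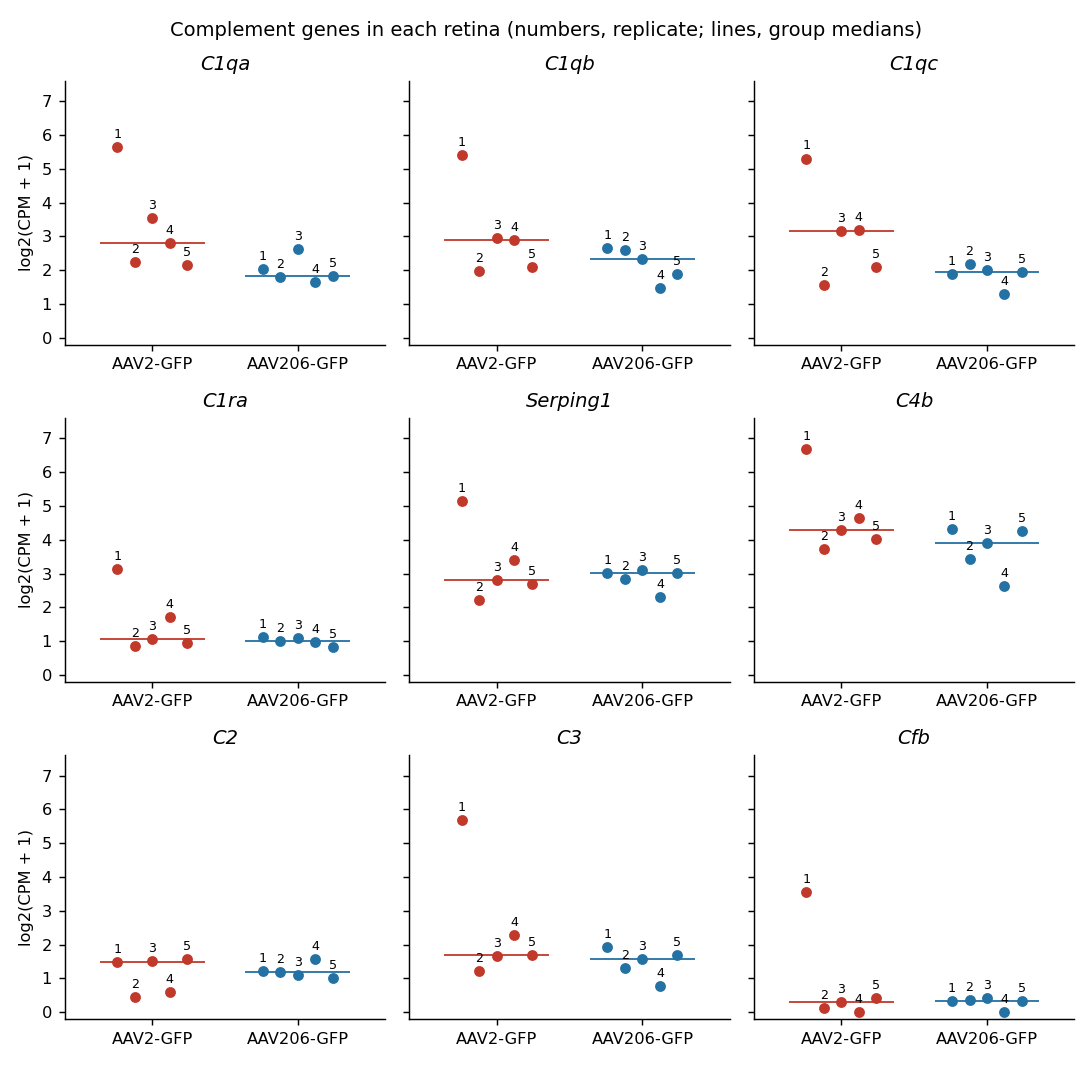
Level of each of the 9 complement genes as log2(CPM + 1) in every retina, with the replicate number over each point and a line at the median of each group of 5. In every panel but that of C2, AAV2-GFP replicate 1 is the highest point.

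C1qa, a chain of the recognition molecule C1q, was at 48.6, 3.77, 10.7, 5.97 and 3.42 CPM in AAV2-GFP replicates 1 to 5 and at 3.11, 2.46, 5.17, 2.15 and 2.54 CPM in AAV206-GFP replicates 1 to 5. Replicates 1, 3 and 4 of AAV2-GFP lay above every AAV206-GFP retina, and replicates 2 and 5 lay within their range. The mean was 14.5 ± 19.3 CPM for AAV2-GFP against 3.09 ± 1.22 CPM for AAV206-GFP (SD, n = 5). The log2 fold change, AAV206-GFP minus AAV2-GFP, was -2.22 (SE 0.62; adjusted p = 0.0326, edgeR). Without AAV2-GFP replicate 1 it was -0.95 (SE 0.33; adjusted p = 0.0683, edgeR), so the difference was smaller and no longer called. The exact two-sided permutation test over the 252 relabellings gave p = 0.0476 for C1qa, or 0.192 adjusted over all tested genes.

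C1qc, another chain, was at 38.6, 1.98, 7.97, 8.07 and 3.25 CPM with AAV2-GFP and at 2.69, 3.56, 3.02, 1.44 and 2.88 CPM with AAV206-GFP. As for C1qa, replicates 1, 3 and 4 of AAV2-GFP were above all AAV206-GFP retinas. Its log2 fold change was -2.13 (SE 0.61; adjusted p = 0.0353, edgeR), and without AAV2-GFP replicate 1 it was -0.97 (SE 0.36; adjusted p = 0.0855, edgeR). C1qb, the chain encoded at the end of the cluster, was at 41.5, 2.96, 6.73, 6.37 and 3.25 CPM with AAV2-GFP and at 5.30, 5.02, 4.05, 1.79 and 2.71 CPM with AAV206-GFP. The same 3 AAV2-GFP retinas exceeded every AAV206-GFP retina, but C1qb did not pass (log2 fold change -1.68, SE 0.61; adjusted p = 0.0866, edgeR). Without AAV2-GFP replicate 1 the C1qb value was -0.36 (SE 0.32; adjusted p = 0.486, edgeR).

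The calls of C1qa and C1qc also depended on other single libraries. C1qa lost its call without AAV206-GFP replicate 1, 2, 4 or 5, and C1qc without AAV2-GFP replicate 4 or any 1 of the 5 AAV206-GFP libraries, where the largest edgeR adjusted p over the 10 leave-one-out fits was 0.0815 for C1qa and 0.0878 for C1qc. In the fits without those libraries the log2 fold changes stayed near their full value, at -2.22 to -2.11 for C1qa and -2.24 to -1.97 for C1qc.

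C1ra encodes the protease C1r, which sits on C1q and cleaves C1s. Its levels were low, at 7.87, 0.808, 1.08, 2.26 and 0.940 CPM with AAV2-GFP and at 1.18, 1.00, 1.12, 0.987 and 0.763 CPM with AAV206-GFP. Replicates 1 and 4 of AAV2-GFP were above the AAV206-GFP retinas and the other 3 were not. It did not pass, with a log2 fold change of -1.34 (SE 0.56; adjusted p = 0.128, edgeR), or -0.33 (SE 0.37; adjusted p = 0.590, edgeR) without AAV2-GFP replicate 1. Of its 150-base windows, 26.3% also occur in C1rb, a close copy that had 0 counts in every library, so a read from either copy could be counted here. Serping1, the inhibitor of C1r and C1s, was at 34.3, 3.68, 5.95, 9.52 and 5.47 CPM with AAV2-GFP and at 7.07, 6.11, 7.59, 3.95 and 7.12 CPM with AAV206-GFP. Its median was higher with AAV206-GFP (7.07 against 5.95 CPM), while its mean was higher with AAV2-GFP (11.8 ± 12.7 against 6.37 ± 1.46 CPM; SD, n = 5). It did not pass with all libraries (log2 fold change -0.88, SE 0.47; adjusted p = 0.232, edgeR), and its sign turned without AAV2-GFP replicate 1 (0.05, SE 0.25; adjusted p = 0.921, edgeR).

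C4b, the mouse C4 from which the classical convertase is built, was the most abundant of the 9 genes in CPM, at 101, 12.3, 18.4, 24.3 and 15.4 CPM with AAV2-GFP and at 18.8, 9.90, 13.95, 5.27 and 18.2 CPM with AAV206-GFP. Only replicates 1 and 4 of AAV2-GFP exceeded all AAV206-GFP retinas. Its log2 fold change of -1.36 (SE 0.50) did not pass (adjusted p = 0.0875, edgeR), and without AAV2-GFP replicate 1 it was -0.41 (SE 0.27; adjusted p = 0.338, edgeR). C4b carried decimals in 9 libraries, as when reads are divided between similar genes. Of the 150-base windows of its longest transcript, 8.26% occur unchanged in C4a, a close copy on the same chromosome. C4a itself was at 0.326 to 1.80 CPM with AAV2-GFP and 0.795 to 2.71 CPM with AAV206-GFP, and it was not high in AAV2-GFP replicate 1 (1.37 CPM). With the C4a counts added to C4b, the log2 fold change was -1.23 (edgeR adjusted p = 0.100).

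C3, on which all complement pathways converge, had the most extreme contrast between retinas among the tested members. It was at 50.1 CPM in AAV2-GFP replicate 1, at 1.35, 2.17, 3.87 and 2.22 CPM in replicates 2 to 5, and at 2.78, 1.46, 1.98, 0.718 and 2.20 CPM in AAV206-GFP replicates 1 to 5. Replicate 1 held 22.8 times the median of the other 4 AAV2-GFP retinas, which themselves overlapped the AAV206-GFP retinas. The medians of the groups were close, at 2.22 and 1.98 CPM, whereas the log2 fold change was -2.68 (SE 0.87; adjusted p = 0.0561, edgeR). Without AAV2-GFP replicate 1 it was -0.39 (SE 0.37; adjusted p = 0.516, edgeR). Leaving out AAV2-GFP replicate 2, 3 or 5 instead brought C3 past the threshold, with an edgeR adjusted p of 0.0306 at the lowest.

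Cfb, the protease precursor of the alternative pathway, did not pass the filter and was not tested. It had 120 counts in AAV2-GFP replicate 1 (10.85 CPM) and between 0 and 4 counts in each of the other 9 retinas. Those 9 levels, at most 0.345 CPM, lie near the floor of 3 counts, which corresponds to 0.235 to 0.273 CPM in these libraries, so Cfb was measurable above the floor by a wide margin in 1 retina. C2, the classical counterpart of Cfb and its direct neighbour, did not share that pattern. It was at 1.81, 0.359, 1.86, 0.509 and 1.97 CPM with AAV2-GFP and at 1.35, 1.28, 1.12, 1.97 and 1.02 CPM with AAV206-GFP. AAV2-GFP replicate 1 held rank 4 of the 10 retinas for C2, and the log2 fold change was 0.05 (SE 0.43; adjusted p = 0.954, edgeR).

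Reads of C2 and Cfb can also be assigned to Gm20547, an annotated gene whose exons overlap both on the same strand and which holds 48.3% of the 150-base windows of C2 and 80.7% of those of Cfb. Gm20547 received 9.69 counts in AAV2-GFP replicate 4 and 0 in every other library. In that library C2 had 6.31 counts, the 1 library where its count was not whole. With the Gm20547 counts added, the C2 log2 fold change was -0.12 (edgeR adjusted p = 0.871), on the other side of 0 and as far from the threshold.

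**Figure D2:**
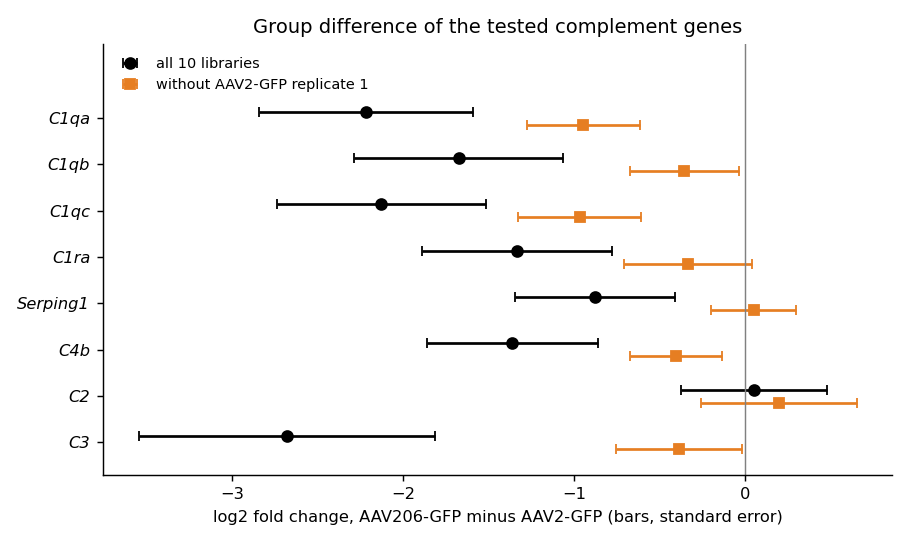
Log2 fold change (AAV206-GFP minus AAV2-GFP) of the 8 tested complement genes with its standard error as bars, from all 10 libraries (circles) and without AAV2-GFP replicate 1 (squares). C3 moves from -2.68 to -0.39, and C1qa and C1qc, at -0.95 and -0.97, stay furthest from 0 without that library.

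Among the AAV2-GFP retinas the 9 genes formed a graded order. Their summed level was 335 CPM in replicate 1, 60.8 in replicate 4, 55.1 in replicate 3, 36.2 in replicate 5 and 27.3 in replicate 2, against 18.3 to 42.6 CPM in the AAV206-GFP retinas. Replicate 4 was among the 3 highest retinas for 7 of the 9 genes and replicate 3 for 4 of them, the C1q chains and C2. AAV206-GFP replicate 4 was the lowest of the 10 retinas for 6 of the 9 genes, counting a tie at 0 for Cfb, yet it was the highest for C2. No tested member separated the groups without overlap, as 9.78% of all tested genes did.

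The summed markers of most immune cell types were also highest in AAV2-GFP replicate 1, and their part in the complement levels was not tested. The 12 microglia markers, all detected in at least 1 library, summed to 174 CPM in AAV2-GFP replicate 1, to 43.5 to 57.2 CPM in the other AAV2-GFP retinas and to 37.1 to 44.3 CPM with AAV206-GFP. All 9 tested microglia markers had negative log2 fold changes (median -0.89, or -0.26 without AAV2-GFP replicate 1), beside 8048 of the 15539 tested genes. Of these 9 markers, 0 were called by edgeR with or without that library. The 12 markers were not raised evenly in replicate 1. Fcrls, near the floor, had 0 counts there against 2 to 7 counts in the other AAV2-GFP retinas. P2ry12, a receptor of homeostatic microglia, was at 1.57 times the median of the other AAV2-GFP retinas and Tmem119 at 2.51 times, whereas the macrophage growth factor receptor Csf1r was at 4.81 times and the signalling adaptor Tyrobp at 8.58 times. For comparison, C1qa, C1qb and C1qc were at 9.99, 8.63 and 6.89 times that median.

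Markers of monocytes and of T and NK cells were high in AAV2-GFP replicate 1. Ccr2, the chemokine receptor of recruited monocytes, had 122 counts there, 10 in AAV2-GFP replicate 3, 1 in replicate 4 and 0 in the other 7 retinas. The 10 T and NK cell markers summed to 21.8 CPM in replicate 1 and to at most 1.81 CPM in any other retina, and Cd3g, Cd8b1, Cd2 and Nkg7 were at 0 outside replicate 1. The 10 monocyte and macrophage markers summed to 196 CPM in replicate 1, to 62.9 to 75.0 CPM in the other AAV2-GFP retinas and to 92.6 to 111 CPM with AAV206-GFP. Itga4, an integrin that other cells also express, supplied most of that sum. Lyve1, on the same list, was lowest in replicate 1, at 5.15 CPM against 5.51 to 9.28 CPM in the other 9 retinas. The neutrophil markers S100a8, Ly6g and Elane were at 0 in every library. B cell markers summed to 34.5 CPM in replicate 1 and to 9.74 to 19.7 CPM elsewhere, most of it from Jchain. Summed Müller glia and astrocyte markers were lowest in replicate 1, at 2681 CPM against 2828 to 3604 CPM in the other 9 retinas. Glul supplied most of that sum. Glul, Rlbp1 and S100b were lowest of all retinas there, whereas Slc1a3, Aqp4, Kcnj10, Dkk3 and Pax2 were not. Summed reactive gliosis genes were highest in replicate 1, at 506 CPM against 246 to 341 CPM. Gfap was not, at 43.9 CPM against 6.29 to 66.2 CPM in the other 9 retinas.

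Interferon response genes and complement genes differed in their level in AAV2-GFP replicate 4. The 18 listed interferon response genes summed to 1117 CPM in AAV2-GFP replicate 1 and to 929 CPM in replicate 4, against 282, 186 and 183 CPM in replicates 3, 2 and 5 and 164 to 193 CPM with AAV206-GFP. Replicate 4 thus came close to replicate 1 for interferon response genes while its complement sum was 60.8 against 335 CPM. Within that list 14 of 15 tested genes were called lower with AAV206-GFP, beside 2 of 8 for the complement genes and 5.30% of all tested genes. Without AAV2-GFP replicate 1 the counts were 6 of 15 and 0 of 8, beside 908 of the 15539 genes tested in both fits. The median log2 fold change of the 15 was then -1.51, against -2.29 with that library. Ifit3, a target of type I interferon, was higher in replicate 4 (128 CPM) than in replicate 1 (32.9 CPM). B2m, the light chain of class I histocompatibility molecules, was at 278 CPM in replicate 1 and 54.1 CPM in replicate 4, a gap in the same direction as that of the complement sum.

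The remaining lists did not set AAV2-GFP replicate 1 apart from the other AAV2-GFP retinas in the same way. For the calls given below, 5.30% of all tested genes were called lower with AAV206-GFP and 5.95% higher. Markers of the retinal pigment epithelium summed to 14.5 to 44.4 CPM with AAV2-GFP and 18.6 to 25.3 CPM with AAV206-GFP, and 1 of 7 tested, Rgr, was lower with AAV206-GFP. Endothelial markers summed to 189 to 207 against 152 to 177 CPM with Cldn5 and Kdr lower, and pericyte and fibroblast markers to 101 to 117 against 88.9 to 109 CPM with 0 of 5 called. The pericyte and fibroblast sum of 117 CPM was that of AAV2-GFP replicate 1, with 101 to 104 CPM in the other AAV2-GFP retinas. Erythrocyte markers were higher with AAV206-GFP, at 101 to 319 against 67.8 to 85.8 CPM, with Hba-a1, Hba-a2, Hbb-bs and Alas2 called. Lens markers were lower with AAV206-GFP, at 0.345 to 10.4 against 9.16 to 28.0 CPM, with Cryaa and Crybb2 called. The part of these lists in the complement levels was not tested.

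**Figure D3:**
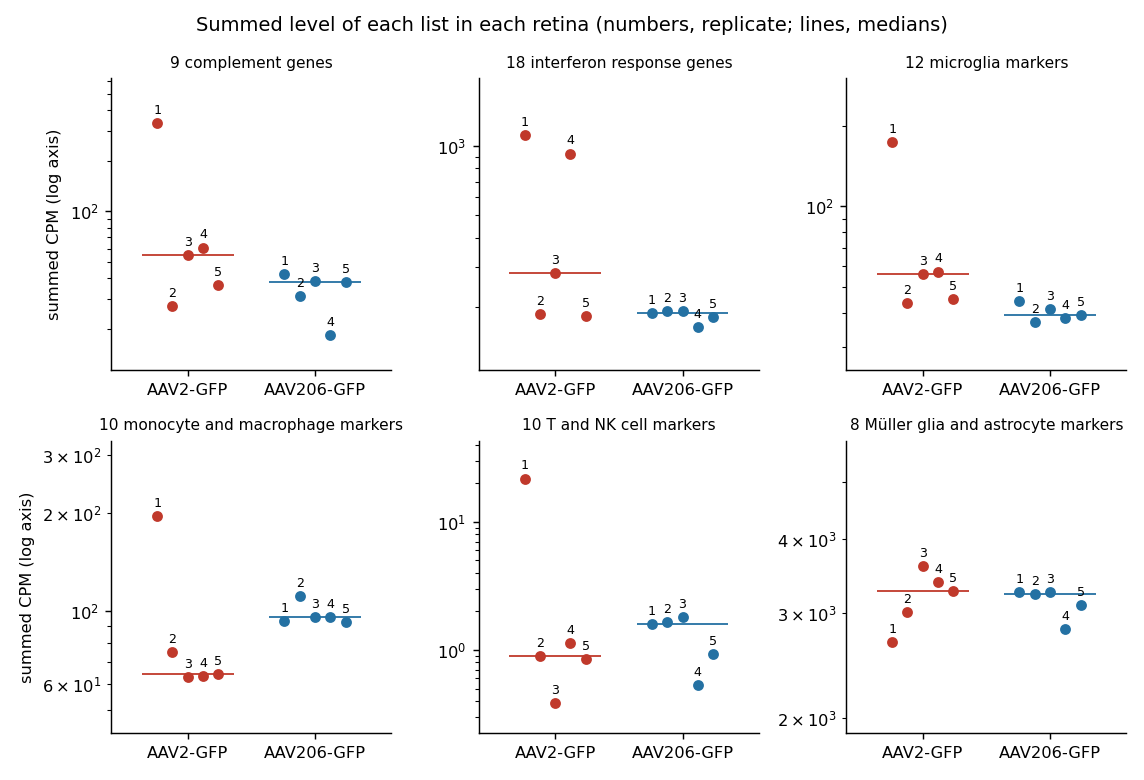
Summed CPM (log axis) of the 9 complement genes, of 18 interferon response genes and of 4 marker lists in every retina, with replicate numbers and a line at each group median. AAV2-GFP replicate 1 is highest in every panel but that of Müller glia and astrocyte markers, and among those 5 panels replicate 4 comes near it only for the interferon response genes.

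**Figure D4:**
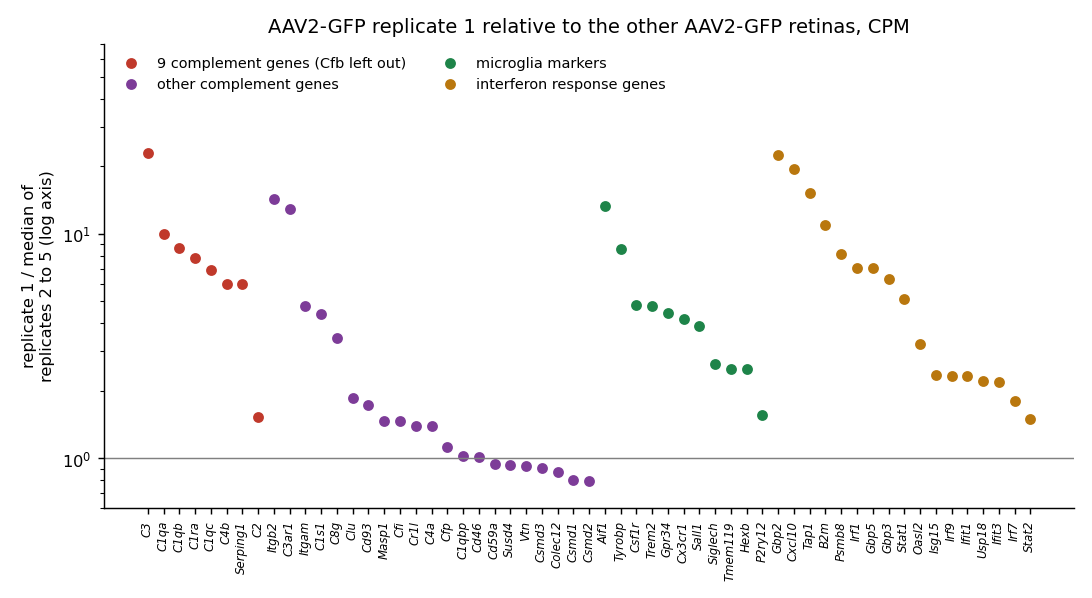
CPM in AAV2-GFP replicate 1 divided by the median of AAV2-GFP replicates 2 to 5 (log axis) for single genes, leaving out genes whose median over those 4 retinas is under the 3-count floor or that are at 0 in replicate 1. The microglia marker Fcrls is left out because it is at 0 in replicate 1, below the other AAV2-GFP retinas. C3 lies at 22.8 and C2 at 1.53, and the complement regulators Cd59a, Susd4 and Vtn lie just under 1.

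Other settings changed how many members were called. With all 15539 genes, 11.2% were called in either direction, beside the 2 members. Without AAV2-GFP replicate 2, 5 members were called (C1qa, C1qb, C1qc, C3 and C4b) and 11.4% of all genes, and with no filter on low counts 6 of 9 were called, these 5 and Cfb, and 6.42% of all genes. With the replicate number as a block 1 member was called, C1qa, and 6.98% of all genes. With limma-voom and sample weights 0 members were called, at an adjusted or an unadjusted p under 0.05, and 13.9% of all genes were called. In the exact permutation test 1 member, C1qa, had an unadjusted p under 0.05, beside 24.8% of all genes.

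The wider complement system was read from a list of 50 further genes, of which 18 were tested and 3 were called, all lower with AAV206-GFP, beside 5.30% of all tested genes called lower. The median log2 fold change of the 18 was -0.08, and 0.06 without AAV2-GFP replicate 1. The called genes were Cfp, Vtn and Cd59a, and none of them was high in AAV2-GFP replicate 1. Cfp encodes properdin, which stabilises the alternative convertase. It was at 13.1, 11.3, 13.8, 12.1 and 10.4 CPM with AAV2-GFP and at 11.1, 8.85, 7.50, 5.83 and 7.38 CPM with AAV206-GFP, with 1 AAV206-GFP retina inside the AAV2-GFP range. Its log2 fold change was -0.58 (SE 0.16; adjusted p = 0.0302, edgeR), and it remained past the threshold without AAV2-GFP replicate 1 (-0.55, adjusted p = 0.0444).

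Vtn encodes vitronectin, which blocks insertion of the membrane attack complex. It was far more abundant, with means of 698 ± 26.7 CPM for AAV2-GFP against 581 ± 56.9 CPM for AAV206-GFP (SD, n = 5) and 1 AAV206-GFP retina inside the AAV2-GFP range, and fell by 0.26 on the log2 scale (SE 0.07; adjusted p = 0.0184, edgeR). Cd59a, a membrane inhibitor of the same complex, was at 39.8, 42.3, 43.3, 41.1 and 41.7 CPM with AAV2-GFP and at 38.4, 32.2, 39.2, 32.2 and 34.4 CPM with AAV206-GFP, so its groups did not overlap. Its log2 fold change was -0.24 (SE 0.07), at the edge of the threshold (adjusted p = 0.0473, edgeR). Without AAV2-GFP replicate 1, Vtn (-0.28, edgeR adjusted p = 0.0166) and Cd59a (-0.25, edgeR adjusted p = 0.0497) also remained past the threshold. Each of these 3 calls was lost without AAV206-GFP replicate 2 or without AAV206-GFP replicate 4. Cfp was also lost without AAV2-GFP replicate 3 or 4 or AAV206-GFP replicate 3 or 5, and Cd59a without AAV2-GFP replicate 2, 3, 4 or 5 or AAV206-GFP replicate 5.

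Other regulators did not pass. Clusterin (Clu), a fluid-phase inhibitor of the membrane attack complex, was at 752 CPM in AAV2-GFP replicate 1, at 369 to 503 CPM in the other AAV2-GFP retinas and at 360 to 406 CPM with AAV206-GFP (log2 fold change -0.32, edgeR adjusted p = 0.170, and -0.11, edgeR adjusted p = 0.414, without that library). Cr1l, the rodent convertase regulator also called Crry, had a log2 fold change of -0.35 (edgeR adjusted p = 0.208), and Cd46 had 0.26 (edgeR adjusted p = 0.247). The neuronal complement inhibitors Csmd1, Csmd2, Csmd3 and Susd4 had log2 fold changes of 0.06 to 0.30, C1qbp, which binds C1q, had 0.10, and none of them passed. None of these 5 was at more than 1.02 times the median of the other AAV2-GFP retinas in replicate 1.

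Of 9 receptors, Itgam and Cd93 were tested and neither passed. Itgam, the alpha chain of complement receptor 3, was at 8.43 CPM in AAV2-GFP replicate 1, at 0.898 to 2.40 CPM in the other AAV2-GFP retinas and at 0.638 to 1.55 CPM with AAV206-GFP (log2 fold change -1.44, edgeR adjusted p = 0.0787, and -0.62, edgeR adjusted p = 0.278, without that library). Its partner Itgb2 and the anaphylatoxin receptor C3ar1 were under the filter, at 15.4 and 6.69 CPM in replicate 1 and at most 1.78 and 0.773 CPM in any other retina. Of 14 further initiation genes, 3 were tested and none passed. C1s1, the protease that C1r activates, was at 6.78 CPM in replicate 1 and between 0.274 and 3.50 CPM elsewhere.

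Most lectin pathway and terminal pathway genes had few or no counts. The lectin pathway genes Mbl1, Mbl2, Fcna and Colec10 had 0 counts in all 10 libraries, as had C6 and C9 of the membrane attack complex, which allows a level of up to 0.235 to 0.273 CPM per library (counting error only). Masp1, a lectin pathway protease, had at least 3 counts in 8 libraries and at most 7 in any. The collectin Colec12 was tested, at 0.821 to 3.15 CPM, with a log2 fold change of 0.06 that was not called (adjusted p = 0.932, edgeR). None of the 7 terminal genes passed the filter, and their summed level was at most 0.995 CPM in any retina, AAV2-GFP replicate 1 included. C8g supplied all of it there, with at least 3 counts in 9 libraries and at most 11. Cfd, the protease that cleaves factor B, had 3 counts in 1 library and 0 in the other 9.

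Levels of different genes were compared per kb of exon, as the median over the 5 mice of a group. With AAV206-GFP the inhibitors Vtn and Clu were highest, at 278 and 114 CPM per kb, followed by Cd59a at 19.0. Among the 9 genes, C1qb was highest at 3.73 CPM per kb, then Serping1 at 3.04, C4b and C1qa at 2.45 each and C1qc at 1.49, while C3, C1ra and C2 lay at 0.386, 0.337 and 0.330. Across the AAV206-GFP mice the 5 higher genes all lay above the 3 lower ones on this scale. Within the higher 5 the ranges over mice overlapped for every pair except C1qa and C1qc, and those of the 3 lower genes overlapped one another. The order of these genes within each single mouse was not compared. With AAV2-GFP the C1q chains were at 5.74, 5.86 and 4.13 CPM per kb for C1qa, C1qb and C1qc.

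**Figure D5:**
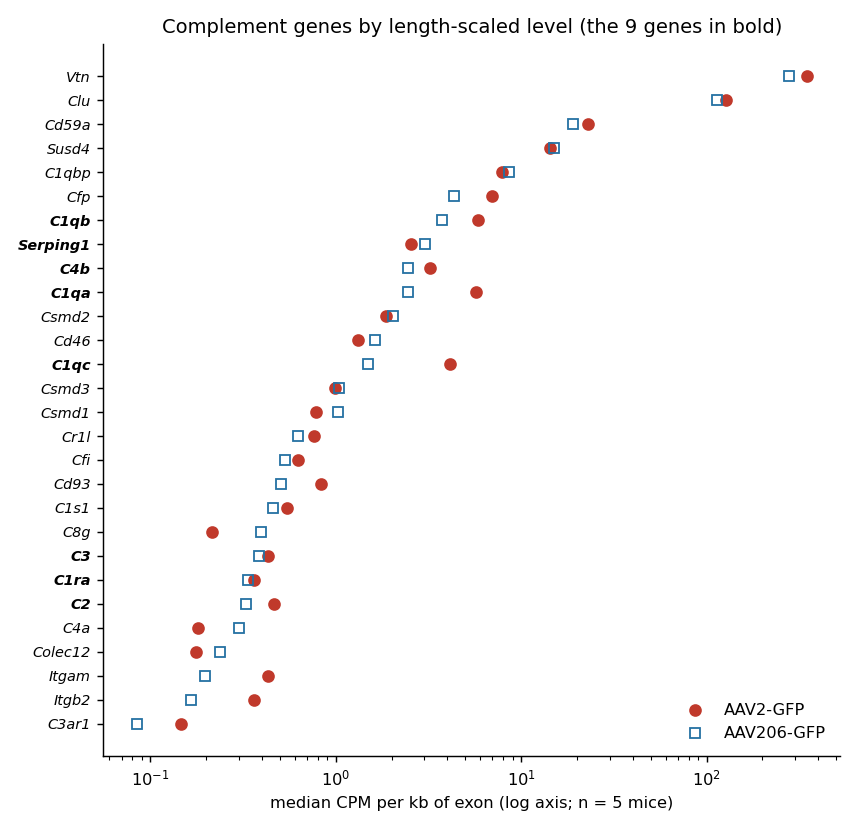
Median CPM per kb of exon (log axis, n = 5 mice per group) of complement genes whose median was at or above the 3-count floor in both groups, AAV2-GFP as filled circles and AAV206-GFP as open squares. Vtn is highest at 278 with AAV206-GFP and C3 lies at 0.386.

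The 10 genes whose levels tracked the mean standardised profile of the 8 tested members most closely over the 10 libraries were Npc2, H2-Q7, Lcp1, H2-D1, Clu, Srgn, Csf1r, Itgam, Ptpn6 and H2-Q6, with Pearson correlations of 0.967 to 0.991 given as a description. Replicate 1 is the extreme library of this profile, and over the other 9 libraries the correlations were 0.655 to 0.882. H2-Q7 and H2-Q6 belong to a family of near-identical class I genes, so their values are uncertain.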

How the data were processed

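RNA from 10 retinas was sequenced, 5 per vector, and each mouse gave 1 library. The deposited table holds estimated counts per gene, which the authors made before deposit. The submitters' processing notes name STAR 2.7.10b, RSEM 1.3.1 and mm10, and the annotation release, the strand setting and the role of each tool are not given in the sources used here. Of all values, 5.95% carried decimals, as when reads are divided between similar genes. Counts were rounded and fitted with edgeR 4.0.16 (R 4.3.3) by the quasi-likelihood F test, with TMM scaling, filterByExpr (minimum count 10) and Benjamini-Hochberg adjustment over 15539 genes at 0.05. The planned test was for counts, and rounding made it fit the deposited unit. CPM used TMM-scaled library sizes, and values per kb used GENCODE M21 exon lengths. Totals per library were 10989843 to 12752604, and a level was held measurable at 3 counts. Intervals and floors cover counting error only. Pairs of libraries of a group differed beyond sampling noise (chi-square per degree of freedom 3.61 to 21.3), so each counted as 1 replicate. Retinas with the same replicate number did not deviate together (r from -0.05 to 0.04), so the numbers were not taken as pairs.

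The 9 genes and all lists were chosen with earlier results of these data known. The rule for naming was all 9 genes, every other complement gene past the threshold, marker lists as a whole and the 10 genes most like the members. Other genes named singly were chosen after their values were seen. Alternatives were DESeq2 1.42.0, limma 3.58.1 (voom with sample weights), other scalings, no filter, no rounding, the replicate block, each library left out, and near-identical copies summed. The exact permutation test on mean log2(CPM + 1) and the sum with Gm20547 were added after the data were seen. The fit was tested on simulated data. Results for some single genes of the lists are not reported here, in the text or the plots.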

Additional observations from a re-analysis of the deposited data

Results flagged for a closer look

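In AAV2-GFP replicate 1, 8 of the 9 complement genes lay far above the other 4 retinas of the group, by the gap to the nearest retina divided by the range of the group (critical value 0.71 for 5 samples). C1qa was at 48.6 CPM there and at 3.42 to 10.7 CPM in the other 4, C1qb at 41.5 against 2.96 to 6.73 CPM, and C1qc at 38.6 against 1.98 to 8.07 CPM. C1ra was at 7.87 against 0.808 to 2.26 CPM and Serping1 at 34.3 against 3.68 to 9.52 CPM. C4b was at 101 against 12.3 to 24.3 CPM, C3 at 50.1 against 1.35 to 3.87 CPM, and Cfb at 10.85 against 0 to 0.342 CPM. These 8 values come from 1 retina and are not independent of one another.

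AAV206-GFP replicate 4 was low for Cfb, at 0 CPM against 0.252 to 0.345 CPM in the other 4, a difference of 3 or 4 counts. For independent, normally distributed values, chance marks about 1 in 20 groups of samples, or 1.2 of the 24 examined, and 9 were marked. These 9 cannot be weighed against that rate, because most come from AAV2-GFP replicate 1 and the ratio was taken on CPM without a log.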

How the results depend on the processing

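Of all genes, 1747 were called, and 1085 with the replicate block, 991 to 1912 with 1 library left out (lowest without AAV2-GFP replicate 4, highest without AAV2-GFP replicate 1) and 0 in the exact permutation test, whose smallest adjusted p was 0.0812 and which gave 3860 at an unadjusted p under 0.05. With 252 relabellings the lowest p that this test can give is 0.00794. Genes at that floor had an adjusted p of 0.0812 in this test, so no gene of any list could be called by it. Of the complement members, 2 were called, and 6 with no filter on low counts, 1 with the replicate block, 0 by limma-voom with sample weights (0 unadjusted) and 0 in the exact permutation test (1 unadjusted). With 1 library left out the count ran from 0 to 5. It was 0 without AAV2-GFP replicate 1 or AAV206-GFP replicate 1, 2, 4 or 5, 1 without AAV2-GFP replicate 4 or AAV206-GFP replicate 3, and 5 without AAV2-GFP replicate 2. Of the other complement genes, 3 were called, 0 in the exact permutation test (4 unadjusted), and 0 to 4 with 1 library left out, with 0 without AAV206-GFP replicate 2 or 4 and 1 without AAV2-GFP replicate 3 or 4. The C2 log2 fold change, 0.05 and not called, was -0.12 with Gm20547 added and -0.18 to 0.25 with 1 library left out, negative without AAV2-GFP replicate 2 (-0.18), AAV2-GFP replicate 4 (-0.16) or AAV206-GFP replicate 4 (-0.12). That of Serping1, -0.88, was 0.048 without AAV2-GFP replicate 1 and ran from -1.11 to 0.048 over these fits. The Cd59a call was lost with upper-quartile scaling (-0.23), no filter and the replicate block. DESeq2 gave C3 no p-value. For the changes with other tests or with the block the cause was not tested. Genes near 3 counts, such as Cfb outside 1 retina, were not resolved at this depth.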
